A study of Mus musculus with 21 samples.

Results

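The immediate early genes grouped with *Jun* in the *Ifnk* transgenic mouse series were *Jun*, *Junb*, *Jund*, *Fos*, *Fosb*, *Egr1*, *Ier2*, *Atf3*, *Dusp1* and *Nr4a1*. These 10 of the 55491 annotated genes were matched by symbol in both count tables, and all 10 were among the 19101 genes tested in skin and the 16173 tested in lymph nodes. The genes were chosen from knowledge of immediate early genes together with earlier results of these same libraries. The contrast that had drawn attention to them was not recorded. All comparisons, in skin and in nodes, therefore describe these genes and the companion lists by levels and by fold changes with SEs, without p-values or intervals. The counts of their calls are descriptions that support nothing, and "called" means only that the edgeR rule marked a gene. The study asked whether *Ifnk*, driven in the epidermis by the *Krt14* promoter, is enough to bring on lupus-like disease of the skin and of the immune system. It also asked how skin-draining lymph nodes of such mice respond to ultraviolet B (UVB) light.

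Poly-A RNA was sequenced as paired-end reads from 9 skin and 12 inguinal lymph node libraries of mice on the BALB/c background. The skin came from untreated mice aged 12 months and made up 3 groups: WT skin (libraries 8, 9 and 10), nonlesional (NL) skin of *Ifnk* TG mice (libraries 2 and 3) and lesional (L) skin of *Ifnk* TG mice (libraries 4, 5, 6 and 7). The nodes made up 4 groups of 3 libraries: untreated WT (1, 2 and 3), untreated *Ifnk* TG (4, 5 and 6), WT after UVB (7, 8 and 9) and *Ifnk* TG after UVB (10, 11 and 12). UVB of 310 nm was given at 250 mJ/cm2 on 3 days per week for 2 weeks, and the mice were then observed for 2 weeks. The labels gave no age for the node donors, no sex for any library and no body site for the skin. By the paper's supplement, lesions were sampled wherever they occurred, and nonlesional skin on the back and at sites like those of the lesions. The labels did not say that libraries of a group came from separate animals. For nodes after UVB the paper's supplement gives 3 mice of each genotype. The p-values, and the calls made from them, measure the spread between libraries. Total counts per library were 40499078 to 56511276 in skin and 27599809 to 36428435 in nodes.

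*Xist* stood at 78.9 to 179 counts per 1000000 (CPM) in 7 of the 9 skin libraries, at 0.319 in NL library 3 and at 0.132 in L library 6. The Y-linked *Ddx3y* had no counts in any of the 9, which allows a share of up to 7.41e-06% of a library's counts, counting error only. In the 12 node libraries *Ddx3y* was at 86.8 to 206 CPM and *Xist* at 0.0811 to 1.46 CPM. Summed over 7 keratinocyte markers, of which *Krt10* was the most abundant, skin libraries held 10210 to 26590 CPM and node libraries 1.38 to 3.12 CPM, with each table normalised separately. The nodes held 2266 to 2883 CPM over the T cell markers, led by *Lck*, and 1244 to 2404 CPM over the B cell markers, led by *Cd79a*.

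*Jun*, *Junb* and *Jund* encode the Jun proteins, which pair with Fos proteins, encoded by *Fos* and *Fosb*, or with ATF proteins such as the product of *Atf3* to form the transcription factor AP-1. *Egr1* and *Nr4a1* encode a zinc finger factor and an orphan nuclear receptor, *Ier2* a nuclear protein, and *Dusp1* a phosphatase that switches off MAP kinases. Most genes of this kind are transcribed within minutes of a growth factor or stress signal, before any new protein is made, and their mRNAs are short-lived.

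In GENCODE M21 on GRCm38, *Jun* (ENSMUSG00000052684) was a single exon of 3189 bases on the minus strand of chromosome 4 at 95049034-95052222. *Junb* (ENSMUSG00000052837) lay on the minus strand of chromosome 8 at 84974484-84978718, *Jund* (ENSMUSG00000071076) on the plus strand of chromosome 8 at 70698949-70700616, and *Ier2* (ENSMUSG00000053560) on the minus strand of chromosome 8 at 84661331-84662852. *Fos* (ENSMUSG00000021250) occupied chromosome 12 at 85473890-85477273 on the plus strand, and *Fosb* (ENSMUSG00000003545) chromosome 7 at 19302696-19310051 on the minus strand. *Atf3* (ENSMUSG00000026628) spanned chromosome 1 at 191170296-191218039 and *Dusp1* (ENSMUSG00000024190) chromosome 17 at 26505590-26562128, both on the minus strand. *Nr4a1* (ENSMUSG00000023034) was on the plus strand of chromosome 15 at 101254269-101274795. On the opposite strand, *Junos* covered 689 of the exon bases of *Jun*, *Gm11175* 919 of those of *Jund*, *Prdx2* 173 of those of *Junb* and *Ergic1* 50 of those of *Dusp1*. *Junos* was assigned 18 to 35 counts in the skin libraries and 0 to 5 in the node libraries. *Gm11175* was assigned 0 to 14 counts in skin and 0 to 41 in nodes, and *Ergic1* 845 to 3383 in skin and 908 to 1397 in nodes. In skin *Ergic1* was at 56.7 to 67.8 CPM in WT libraries, 64.6 and 48.3 CPM in NL and 20.8 to 36.8 CPM in L libraries. *Prdx2* was assigned 9250 to 23342 counts in skin and 1138 to 2255 in nodes, at 229 to 236 CPM in WT libraries, 257 and 267 CPM in NL and 343 to 420 CPM in L libraries. Whether the libraries were stranded was not stated, so reads of an overlapping pair could not be told apart.

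Promoters of 8 of the 10 genes were found in the RefSeq table for GRCm38.p6, and those of *Egr1* and *Ier2* were not. In the 250 bases before the start of transcription, the letters TGACGTC, most of a cAMP response element, occurred in 2.78% of all 32851 promoters. Among the matched genes only *Dusp1* had them, at 191 and 143 bases before the start on the coding strand. Both strands were searched. The shorter core TGACG, which lies within TGACGTC, occurred in 17.8% of all promoters on either strand and was found in *Junb*, *Fos*, *Fosb*, *Atf3*, *Dusp1* and *Nr4a1*. The variant TGACATC, present in 4.83% of all promoters, was found in *Jun* alone, 45 to 39 bases before the start. The canonical AP-1 site TGACTCA, in 4.46% of all promoters, was in 0 of the 8. *Jund* had none of these motifs, and its RefSeq start lay 1210 bases from the nearest GENCODE start.

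The 150 bases before the RefSeq start (GRCm38.p6), read 5′ to 3′ along the gene, are given for the 5 genes whose motifs differ most or that varied most in skin. Capitals mark TGACATC in *Jun*, TGACG in *Fos* and *Fosb*, the same core on the other strand in *Atf3*, and TGACGTC with the base after it in *Dusp1*. A match of letters is a description and not a bound site.
*Jun*, chr4:95052223-95052372, minus strand: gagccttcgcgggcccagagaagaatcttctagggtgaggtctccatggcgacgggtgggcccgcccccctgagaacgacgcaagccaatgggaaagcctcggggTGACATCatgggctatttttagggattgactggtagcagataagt
*Fos*, chr12:85473740-85473889, plus strand: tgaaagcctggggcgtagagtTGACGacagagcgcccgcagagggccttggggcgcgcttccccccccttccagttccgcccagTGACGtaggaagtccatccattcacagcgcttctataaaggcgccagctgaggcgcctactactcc
*Fosb*, chr7:19310046-19310195, minus strand: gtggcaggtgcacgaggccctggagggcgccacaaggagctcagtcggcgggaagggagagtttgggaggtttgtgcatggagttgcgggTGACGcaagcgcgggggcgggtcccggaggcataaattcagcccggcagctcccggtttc
*Atf3*, chr1:191183334-191183483, minus strand: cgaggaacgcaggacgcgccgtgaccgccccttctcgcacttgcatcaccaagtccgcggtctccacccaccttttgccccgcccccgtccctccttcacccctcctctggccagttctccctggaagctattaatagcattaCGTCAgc
*Dusp1*, chr17:26508473-26508622, minus strand: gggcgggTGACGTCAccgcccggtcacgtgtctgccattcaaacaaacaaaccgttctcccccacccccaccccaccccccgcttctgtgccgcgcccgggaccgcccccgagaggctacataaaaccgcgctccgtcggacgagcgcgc

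In skin, *Fos* stood at 1006, 90.4 and 218 CPM in WT libraries 8, 9 and 10, and at 775 and 388 CPM in NL libraries 2 and 3. In L libraries 4 to 7 it stood at 81.6, 161, 421 and 408 CPM. *Fosb* stood at 177, 5.79 and 35.2 CPM in WT, 118 and 48.0 CPM in NL, and 5.72, 7.97, 46.8 and 48.4 CPM in L libraries. Both genes were highest in WT library 8 and lowest in L library 4, with WT library 9 close to the bottom, so the WT range contained both NL values and all L values except that of library 4. The mean for *Fos* was 438 ± 496 CPM (SD, n = 3) in WT, 581 ± 274 (n = 2) in NL and 268 ± 172 (n = 4) in L libraries.

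*Jun* stood at 246, 90.7 and 105 CPM in WT libraries 8, 9 and 10, at 172 and 90.9 CPM in NL libraries 2 and 3, and at 83.3, 103, 131 and 171 CPM in L libraries 4 to 7. Its group means were 147 ± 85.7 CPM in WT, 132 ± 57.4 in NL and 122 ± 37.9 in L libraries. *Junb* was at 294, 72.5 and 127 CPM in WT, 261 and 160 CPM in NL, and 167, 200, 346 and 252 CPM in L libraries. *Jund* was at 123, 103 and 107 CPM in WT, 137 and 115 CPM in NL, and 97.4, 146, 125 and 127 CPM in L libraries. For all 3 Jun genes the groups overlapped. WT library 8 was 2.71-fold above WT library 9 for *Jun*, 4.05-fold for *Junb* and 1.20-fold for *Jund*.

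*Egr1* (ENSMUSG00000038418, plus strand of chromosome 18 at 34859823-34864984) stood at 662, 83.8 and 145 CPM in WT libraries 8, 9 and 10, at 519 and 370 CPM in NL, and at 96.4, 202, 341 and 298 CPM in L libraries. *Nr4a1* was at 105, 25.7 and 54.7 CPM in WT, 50.2 and 37.3 CPM in NL, and 18, 6.56, 60.6 and 35.5 CPM in L libraries. For *Egr1* both NL values lay above all 4 L values and within the WT range, whereas *Nr4a1* overlapped in every pair of groups. Mean *Egr1* was 297 ± 318 CPM in WT, 445 ± 105 in NL and 234 ± 109 in L libraries.

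*Dusp1* was at 511, 119 and 146 CPM in WT libraries 8, 9 and 10, at 429 and 313 CPM in NL, and at 98.9, 128, 293 and 192 CPM in L libraries. *Atf3* was at 154, 8.55 and 29.7 CPM in WT, 51.6 and 45.5 CPM in NL, and 16.5, 8.66, 66.8 and 23.3 CPM in L libraries. *Ier2* was at 140, 29.8 and 50.6 CPM in WT, 115 and 70.9 CPM in NL, and 55.5, 72.8, 98.6 and 102 CPM in L libraries. The NL values of *Dusp1* lay above all L values, and WT library 8 was the highest library for each of the 3 genes. Across the 9 libraries, WT library 8 was the highest for 8 of the 10 genes, NL library 2 was among the top 3 for 9, WT library 9 was among the bottom 3 for all 10 and L library 4 for 9. The mean standardized log2 CPM of the 10 genes was 1.31 in WT library 8, -1.26 in WT library 9 and -0.386 in WT library 10. It was 0.896 and 0.0919 in NL libraries 2 and 3, and -1.02, -0.512, 0.564 and 0.319 in L libraries 4 to 7.

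**Figure D1:**
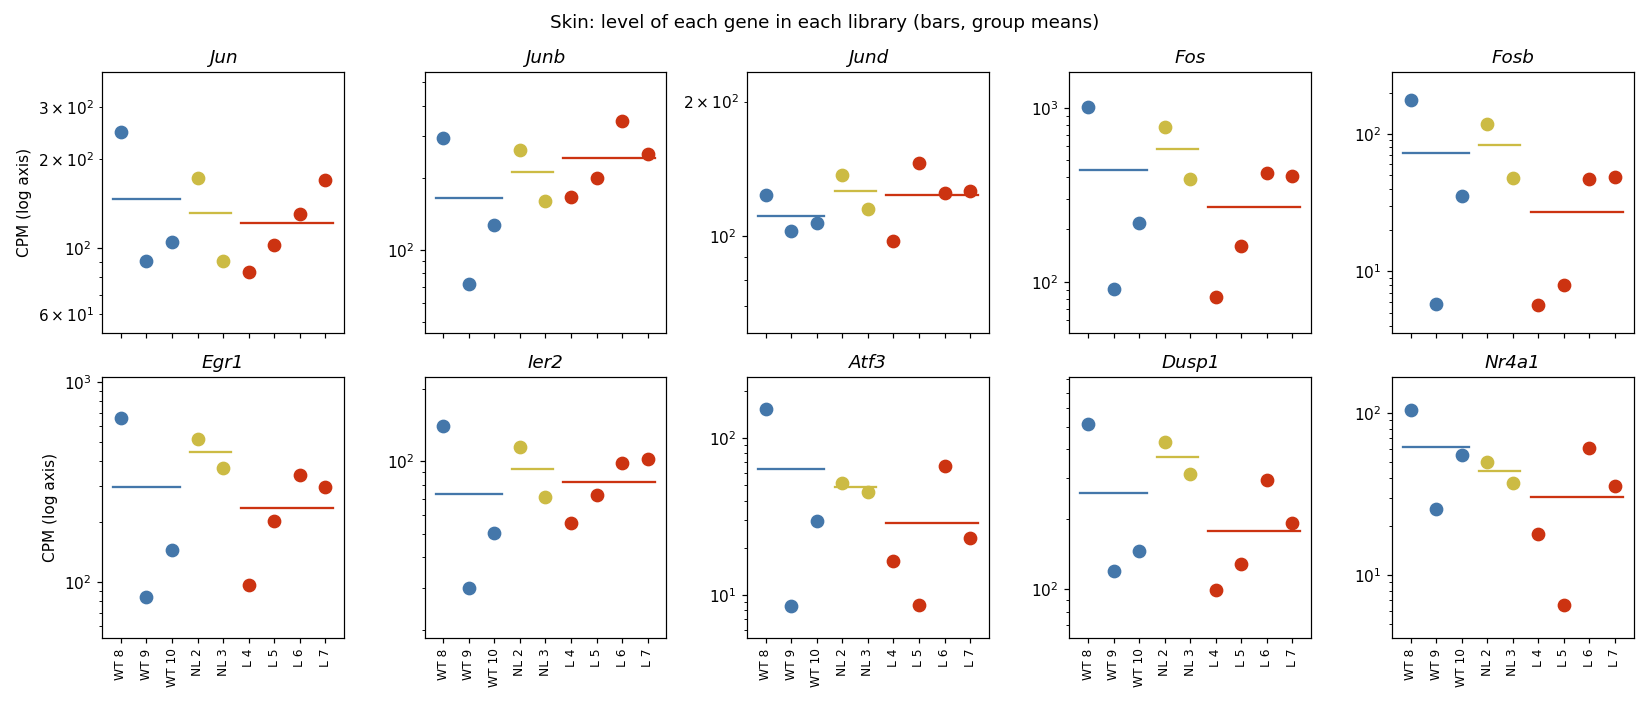
CPM of each of the 10 genes in the 9 skin libraries on a log axis, by group, with each dot a library and each bar a group mean. *Fosb* spans from 5.79 to 177 CPM within WT skin, whereas *Jund* spans from 103 to 123 CPM.

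The spread between libraries of the same group was far above that of most genes. For the 10720 skin genes with a mean log2 CPM of at least 3, the median SD within groups was 0.188 on the log2 scale. *Fosb* had an SD of 1.87, larger than that of 99.3% of these genes, *Atf3* 1.49 (99%), *Fos* 1.33 (98.8%), *Nr4a1* 1.14 (98.3%) and *Egr1* 1.07 (98.1%). *Dusp1*, *Ier2*, *Junb* and *Jun* had SDs of 0.827, 0.745, 0.698 and 0.609, and *Jund* was near the median at 0.203 (55.2%). Within WT skin alone the highest library exceeded the lowest 30.5-fold for *Fosb*, 18-fold for *Atf3* and 11.1-fold for *Fos*. In nodes, where the median SD of 9133 genes was 0.141, *Dusp1* had 0.484 (98%), *Jund* 0.288 (90.5%), *Nr4a1* 0.250 (86.4%) and *Jun* 0.161 (61.5%).

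**Figure D2:**
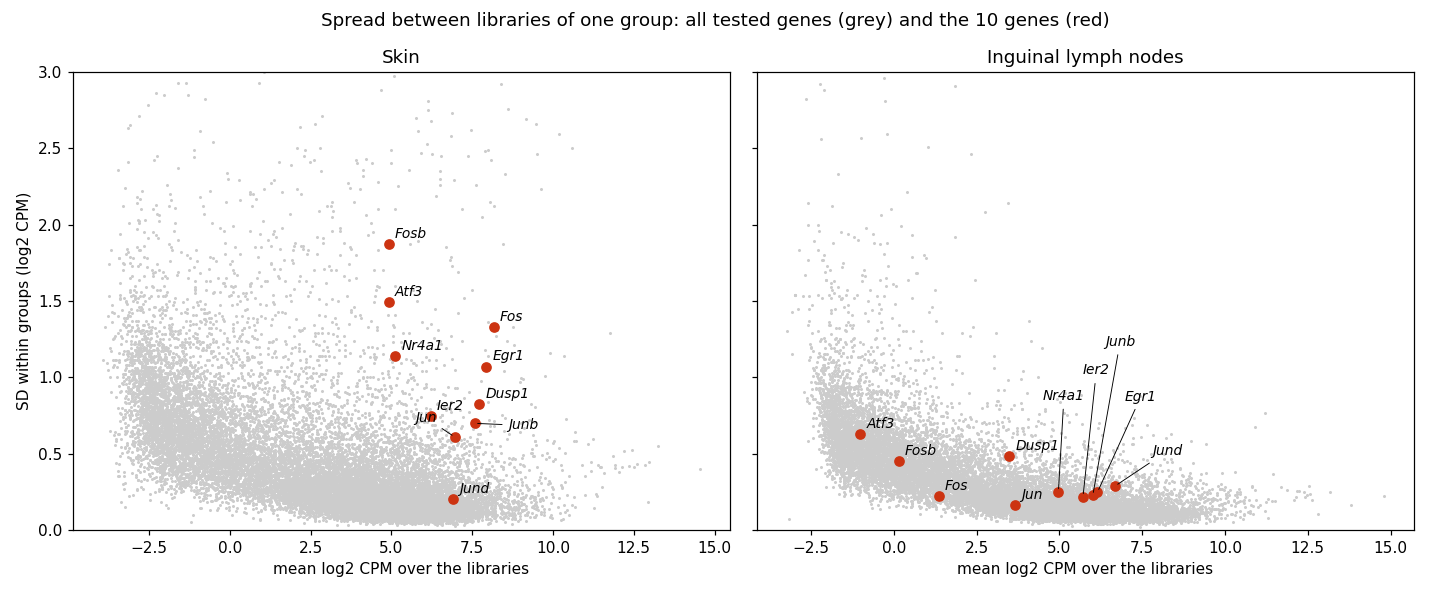
SD within groups against mean level, both in log2 CPM, for all tested genes (grey) and the 10 genes (red) in skin and nodes; genes with an SD above 3 are not drawn. In skin 9 of the 10 genes have a larger SD than 94.1% or more of the 10720 genes with a mean log2 CPM of at least 3, and *Jund* does not.

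In L against WT skin, which asks what sets lesions apart from healthy skin, 0 of the 10 genes were called by edgeR at a Benjamini-Hochberg adjusted p under 0.05, against 43.1% of all tested genes (8237, with 4386 higher and 3851 lower). At an unadjusted p under 0.05 the count was 0, against 51.7% of all genes. By DESeq2 it was also 0, against 8836 of all genes. These counts are descriptions. The groups overlapped for all 10, whereas they did not overlap for 49.4% of all genes. The median log2 fold change of the 10 was -0.44, with 3 above 0, against 0.06 for all genes. The largest fitted differences were for *Fosb*, at -1.42 (SE 1.13), *Atf3*, at -1.15 (SE 0.953), and *Nr4a1*, at -1.03 (SE 0.706). *Fos* was at -0.71 (SE 0.849) and *Egr1* at -0.34 (SE 0.704). *Jun* was at -0.27 (SE 0.407), *Junb* at 0.55 (SE 0.469), *Jund* at 0.16 (SE 0.145), *Ier2* at 0.17 and *Dusp1* at -0.54.

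WT library 8 set the direction of these differences for 6 genes. Without it *Jun* moved to 0.32, *Fos* to 0.80, *Fosb* to 0.41, *Egr1* to 1.04, *Atf3* to 0.59 and *Dusp1* to 0.42, all from below 0, and none of these was called by edgeR. *Junb* then stood at 1.27 (SE 0.381) and, as a description, was the gene of the 10 that edgeR then called, with *Ier2* at 1.03, *Jund* at 0.24 and *Nr4a1* at -0.42. Over the 7 fits that each left out a library, *Jun* ranged from -0.54 to 0.32, *Fos* from -1.20 to 0.80, *Fosb* from -1.97 to 0.41 and *Ier2* from -0.22 to 1.03. Leaving out NL library 3 and L library 6 together, an alternative chosen after seeing the data because of their low *Xist*, gave -0.32 for *Jun*, -1.02 for *Fos*, -1.82 for *Fosb* and -1.64 for *Nr4a1*.

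In L against NL skin, which compares affected with unaffected skin of the same genotype, 0 of the 10 were called by edgeR, against 25% of all genes (4782). All genes called numbered 1470 without NL library 2 and 1182 without NL library 3. At an unadjusted p under 0.05 there were 0 of the 10, against 39% of all genes. DESeq2 called 0 of the 10 and 5918 of all genes. *Egr1* and *Dusp1* were lower in all 4 L libraries than in both NL libraries, 2 of 10 genes whose groups did not overlap, against 49.4% of all genes. *Dusp1* was at -1.06 (SE 0.620) and *Egr1* at -0.92 (SE 0.780). *Fosb* was at -1.61, *Fos* at -1.12, *Atf3* at -0.75 and *Nr4a1* at -0.54, and *Jun* (-0.11), *Junb* (0.19), *Jund* (-0.03) and *Ier2* (-0.18) were closer to 0. Over the 6 fits that each left out an L or NL library, *Fos* ranged from -1.52 to -0.53, *Fosb* from -2.11 to -0.82, *Atf3* from -1.59 to -0.45, *Egr1* from -1.16 to -0.66 and *Dusp1* from -1.41 to -0.82. *Jun* changed sign, from -0.48 without NL library 3 to 0.42 without NL library 2. *Junb*, *Jund* and *Ier2* also had values on both sides of 0. The median of the 10 was -0.65, with 1 above 0. Only 2 NL libraries bear these differences, and their pair differed by up to 2.46-fold.

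In NL against WT skin, which compares the genotypes without lesions and shares its WT libraries with L against WT, 0 of the 10 and 0% of all genes were called by edgeR. At an unadjusted p under 0.05 the counts were 0 of the 10 and 1465 of all genes, and DESeq2 called 0 of the 10 and 62 of all genes. No gene of the 10 had groups that did not overlap, against 35% of all genes. The median of the 10 was 0.27, with 7 above 0. *Jun* was at -0.16, *Fos* at 0.41, *Egr1* at 0.58 and *Dusp1* at 0.52. Without WT library 8 the same fit gave 0.42 for *Jun*, 1.92 for *Fos*, 2.02 for *Fosb*, 1.96 for *Egr1* and 1.48 for *Dusp1*. Without NL library 2 it gave -0.70 for *Jun*, -0.18 for *Fos* and -0.60 for *Fosb*, so the direction of these 3 genes differed with the library left out.

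**Figure D3:**
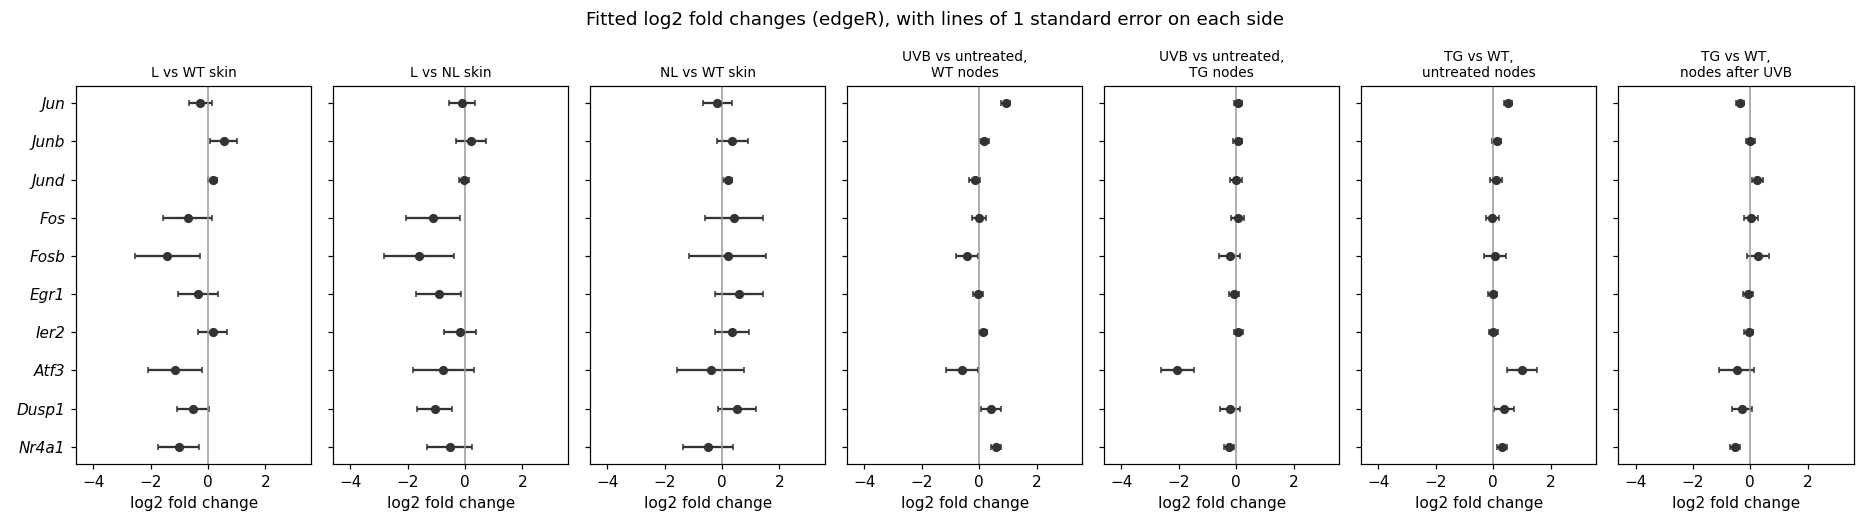
edgeR log2 fold changes of the 10 genes (points) in the 3 skin and 4 node comparisons, with lines of 1 SE on each side. *Fosb* is at -1.42 with an SE of 1.13 in L against WT skin, and *Jun* at 0.92 with an SE of 0.142 in WT nodes after UVB.

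Other genes of the same regulatory circuit were compared in L against WT skin, where edgeR called 43.1% of all genes. There 51.7% of all genes were at an unadjusted p under 0.05, and DESeq2 called 8836 genes. Of 14 further AP-1 and bZIP partners, 4 were called higher and 4 lower (unadjusted 9, DESeq2 9), among them *Jdp2* at -0.85 (SE 0.173) and *Maff* at 0.75 (SE 0.168). The count was 5 without WT library 9, where all genes called numbered 6250 against 8237 with every library. *Fosl2*, a partner of *Jun*, went from 117 ± 10.5 CPM in WT to 174 ± 29.3 CPM in L libraries. Of 38 other early response genes 13 were called higher and 1 lower (unadjusted 19, DESeq2 17), led by *Nfkbiz* at 1.65 (SE 0.343), *Egr3* at 1.38 (SE 0.223) and *Ier3* at 1.24 (SE 0.194), and 8 were called without WT library 9. *Egr3* stood at 103, 131, 142 and 127 CPM in L libraries 4 to 7 against 68.5, 37.2 and 39.2 CPM in WT libraries 8, 9 and 10, without the overlap that *Egr1* had. The gene called lower was *Ctgf*, now *Ccn2*, at -1.04.

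In L against WT skin edgeR called 43.1% of all genes, 51.7% were at an unadjusted p under 0.05, and DESeq2 called 8836. Of 14 MAP kinase phosphatases and Sprouty inhibitors, listed as companions of *Dusp1*, 3 were called higher and 1 lower (unadjusted 5, DESeq2 4). *Dusp2* went from 1.70 ± 0.363 to 22.5 ± 8.12 CPM and *Dusp14* from 11.3 ± 2.7 to 100 ± 37.9 CPM, *Dusp5* was at 1.26 and *Spry2* at -0.56. Of 20 kinases and factors upstream 4 were called higher and 7 lower (unadjusted 11, DESeq2 9), led by *Rps6ka5* at -1.08, *Mapk9* at -1.03 and *Mapk8* at -0.82, and 7 were called without WT library 9. *Mapk8* and *Mapk9*, which encode the Jun kinases, stood at 17.4 ± 1.45 and 26.8 ± 4.48 CPM in L skin against 30.9 ± 2.89 and 54.7 ± 2.14 CPM in WT skin. Of 11 AP-1 target genes 7 were called higher and 0 lower (unadjusted 8, DESeq2 7), among them *Cd44* from 64.7 ± 0.995 to 188 ± 18.6 CPM. *Sprr1b* went from 0.0630 to 82.5 ± 57.6 CPM, so it passed the filter on low counts through libraries other than WT. Counts of calls in this list, here and in L against NL skin, therefore support nothing. In L against WT skin 4 were called when at least 10 counts in every library were required. Of 12 heat shock genes *Dnajb1* (0.68) and *Hspe1* (0.52) were called higher and *Bag3* (-0.44) lower (unadjusted 3, DESeq2 3).

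In L against NL skin edgeR called 3 higher and 2 lower of the 14 partners of *Jun* and *Fos*, 7 higher and 1 lower of the 38 early response genes, 2 higher and 1 lower of the 14 phosphatases and inhibitors, 1 higher and 4 lower of the 20 upstream genes, 1 higher and 1 lower of the 12 heat shock genes and 5 higher of the 11 targets, beside 25% of all genes (4782, or 1470 without NL library 2 and 1182 without NL library 3). Without NL library 2 or NL library 3 the early response and heat shock counts fell to 0, the partners to 2 and 1, the upstream genes to 1 and 0 and the targets to 2 and 1. In NL against WT skin 0 genes of any of these 6 lists were called by edgeR. At an unadjusted p under 0.05 there were 1, 4, 1, 3, 3 and 4, beside 7.67% of all genes. DESeq2 called 1 early response gene, beside 62 of all genes.

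Markers of cells and structures are given for L against WT skin beside *Jun* and the other 9 genes. Their counts of calls stand beside 43.1% of all genes by edgeR, 51.7% at an unadjusted p under 0.05 and 8836 genes by DESeq2. The summed level of 7 hair shaft and matrix markers was 4.47, 3.68 and 4.30 CPM in WT libraries 8, 9 and 10, 7.13 and 8.83 CPM in NL libraries 2 and 3, and 2011, 6105, 7142 and 9497 CPM in L libraries 4 to 7, led by *Krt71*. *Krt34* was at 0 in all 3 WT libraries, *Krt81* in WT 8, WT 9 and NL 2, *Krt86* in WT 8 and NL 2, and *Krt31* in WT 10. These 4 passed the filter on low counts through the L libraries, so no count of calls is given for this list. Skeletal muscle markers, led by *Acta1*, were lower for 3 of 7 by edgeR (unadjusted 6, DESeq2 1), at 25710, 32060 and 35820 CPM in WT, 24400 and 28600 CPM in NL, and 6646, 23.7, 354 and 1426 CPM in L libraries. Neutrophil markers, led by *S100a9*, were higher for 3 of 5 by edgeR (unadjusted 4, DESeq2 4), at 15, 20 and 10.2 CPM in WT, 13 and 12.2 CPM in NL, and 572, 141, 75.6 and 63.3 CPM in L libraries, with *Ly6g* at 0 in WT 9, WT 10, both NL libraries and L 6. Endothelial markers, led by *Pecam1*, were lower for 3 of 5 by edgeR (unadjusted 4, DESeq2 4), at 337, 223 and 250 CPM in WT, 250 and 206 CPM in NL, and 118, 85.9, 193 and 183 CPM in L libraries. Adipocyte markers, led by *Fabp4*, were lower for 2 of 6 by edgeR (unadjusted 4, DESeq2 5), at 10080, 8381 and 6876 CPM in WT, 6750 and 5942 CPM in NL, and 3608, 761, 3932 and 3523 CPM in L skin. T cell markers, led by *Cd3g*, were higher for 4 of 7 by edgeR (unadjusted 5, DESeq2 5), at 39.9, 28.2 and 36.6 CPM in WT, 36.2 and 47.8 CPM in NL, and 57.1, 71.4, 76.2 and 32.3 CPM in L skin. *Cd3g* itself overlapped between the groups, at 22.2, 14.1 and 19.3 CPM in WT and 18.7, 21.5, 17.8 and 10.3 CPM in L skin. The other lists gave 2 of 5 plasma cell markers higher, 1 of 7 fibroblast markers lower, 2 of 7 keratinocyte markers higher and 1 lower, 2 of 6 dendritic cell markers higher and 1 lower (unadjusted 5, DESeq2 4), 1 of 5 smooth muscle markers higher and 1 lower, and 0 B cell, macrophage, erythroid or mast cell markers called by edgeR (unadjusted 0, 1, 0 and 1, and the same counts by DESeq2). Their part in the result was not tested. Fewer cells that make a transcript and less of it per cell cannot be told apart in bulk RNA. A difference of body site cannot be told apart from one of group either, because the labels gave no site.

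In the nodes the genes stood in another order. Per kilobase of exon, the median over skin libraries was highest for *Fos* (165 CPM per kb), followed by *Junb* (87.0), *Jund* (74.0), *Egr1* (66.5), *Dusp1* (58.0), *Ier2* (47.8) and *Jun* (33.0), with *Atf3*, *Nr4a1* and *Fosb* at 13.8, 10.6 and 7.50. Over node libraries, normalised in a separate table, it was highest for *Jund* (60.5), *Ier2* (35.1), *Junb* (29.0) and *Egr1* (16.9), with *Nr4a1* at 8.79, *Jun* at 4.19, *Dusp1* at 3.22, *Fos* at 1.09, *Atf3* at 0.195 and *Fosb* at 0.178. Raw counts in nodes were 269 to 553 for *Jun*, 69 to 97 for *Fos*, 17 to 58 for *Fosb* and 5 to 66 for *Atf3*. The skin order was that of medians and did not hold in each library. In L library 4, *Fos* (2352 exon bases) stood at 81.6 CPM and *Junb* (2301 exon bases) at 167 CPM.

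*Jun* stood at 8.63, 8.44 and 9.55 CPM in untreated WT nodes 1, 2 and 3, and at 13.7, 13.3 and 10.7 CPM in untreated *Ifnk* TG nodes 4, 5 and 6. After UVB it stood at 16.6, 18.7 and 15.1 CPM in WT nodes 7, 8 and 9, and at 13.4, 11.5 and 14.8 CPM in *Ifnk* TG nodes 10, 11 and 12. All 3 untreated WT libraries were below every other library, all 3 WT libraries after UVB were above every other library, and the *Ifnk* TG groups overlapped each other between them. Group means were 8.87 ± 0.594 CPM (SD, n = 3) in untreated WT, 12.6 ± 1.64 in untreated *Ifnk* TG, 16.8 ± 1.83 in WT after UVB and 13.2 ± 1.65 in *Ifnk* TG nodes after UVB.

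*Nr4a1* stood at 29.2, 26.0 and 25.8 CPM in untreated WT nodes, 34.0, 27.0 and 38.2 CPM in untreated *Ifnk* TG nodes, 39.8, 47.8 and 33.2 CPM in WT nodes after UVB, and 30.0, 20.9 and 31.8 CPM in *Ifnk* TG nodes after UVB. Its 3 WT values after UVB were above all untreated WT values and above all *Ifnk* TG values after UVB, and they overlapped the untreated *Ifnk* TG values. Means were 27.0 ± 1.92, 33.1 ± 5.67, 40.3 ± 7.29 and 27.5 ± 5.81 CPM in that order of groups.

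**Figure D4:**
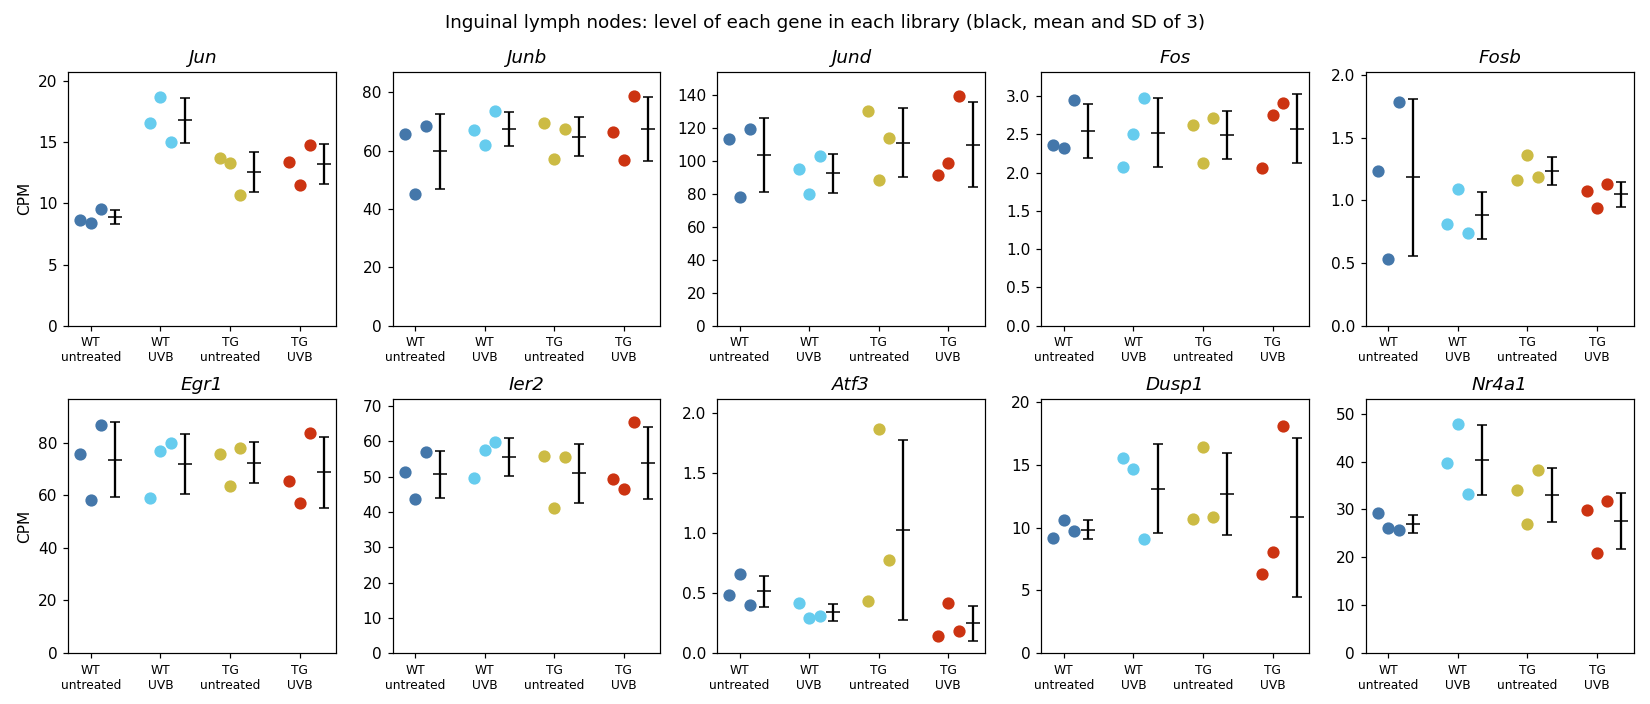
CPM of each of the 10 genes in the 12 node libraries by group, with each dot a library and black marks for the mean and SD of 3 libraries. For *Jun* the untreated WT libraries sit between 8.44 and 9.55 CPM and the WT libraries after UVB between 15.1 and 18.7 CPM.

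The other 8 genes overlapped between untreated and UVB-exposed WT nodes. *Junb* was at 65.8, 45.1 and 68.5 CPM in untreated WT and 67.0, 61.8 and 73.5 CPM in WT nodes after UVB, and *Jund* at 113, 77.9 and 119 CPM and at 95, 79.8 and 103 CPM. Over all 12 node libraries *Egr1* ranged from 57.2 to 86.5 CPM, *Ier2* from 41.2 to 65.5 CPM and *Fos* from 2.07 to 2.97 CPM. *Dusp1* was at 9.14, 10.6 and 9.73 CPM in untreated WT, 10.7, 16.5 and 10.9 CPM in untreated *Ifnk* TG, 15.6, 14.7 and 9.07 CPM in WT after UVB, and 6.34, 8.04 and 18.1 CPM in *Ifnk* TG nodes after UVB. *Atf3* was at 0.433, 1.87 and 0.778 CPM in untreated *Ifnk* TG nodes and at 0.145, 0.418 and 0.184 CPM after UVB. For *Atf3* and *Fosb* the *Ifnk* TG values after UVB all lay below the untreated ones. *Ifnk* TG node 12 after UVB was the highest of the 12 libraries for 4 of the 10 genes, and untreated WT node 2 the lowest for 4.

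UVB against untreated WT nodes asks what repeated UVB leaves behind in draining nodes of mice without the transgene. As a description, the call rule marked 1 of the 10 genes, *Jun*, with edgeR and 2, *Jun* and *Nr4a1*, with DESeq2. Of all genes 4.98% (805, with 472 higher and 333 lower) were called by edgeR and 14.3% (1972 of 13780) by DESeq2. At an unadjusted p under 0.05 there were 2 of the 10 and 26.3% of all genes. Because this contrast may have served to choose the genes, nothing is read from any of these shares. *Jun* was at 0.92 (SE 0.142) and *Nr4a1* at 0.58 (SE 0.173), and these were the 2 of 10 genes whose groups did not overlap, as 37.1% of all genes did not. *Junb* was at 0.17, *Jund* at -0.16, *Fos* at -0.01, *Fosb* at -0.43, *Egr1* at -0.03, *Ier2* at 0.14, *Atf3* at -0.59 and *Dusp1* at 0.41. The count of 1 went to 0 without untreated WT node 3, where *Jun* was at 0.95, or without WT UVB node 8, where it was at 0.84, and all genes called then numbered 7 and 0. Over the 6 fits that each left out a library of these groups *Jun* ranged from 0.84 to 0.97 and *Nr4a1* from 0.44 to 0.67.

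In *Ifnk* TG nodes, where the same exposure was compared within the transgenic genotype, 0 of the 10 genes and 0% of all genes were called by edgeR after UVB. At an unadjusted p under 0.05 there were 1 of the 10 and 1507 of all genes (9.32%), and DESeq2 called 0 of the 10 and 134 of all genes. *Jun* was at 0.07 (SE 0.140), higher than every untreated library in 1 of the 3 libraries after UVB. *Nr4a1* was at -0.26 (SE 0.172). *Atf3* was at -2.05 (SE 0.566), and without untreated *Ifnk* TG node 5 at -1.29. *Dusp1* was at -0.23, and without *Ifnk* TG node 12 at -0.84. *Fosb* was at -0.23, and with *Atf3* it made 2 of 10 genes whose groups did not overlap, against 13.3% of all genes.

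The difference between genotypes in the change after UVB was fitted as an interaction. For *Jun* it was -0.85 (SE 0.199), and for *Nr4a1* -0.84 (SE 0.244). For *Atf3* it was -1.465 (SE 0.799) and for *Dusp1* -0.64 (SE 0.495). The remaining genes lay between -0.12 (*Junb*) and 0.20 (*Fosb*). In this comparison 0 of the 10 and 0% of all genes were called by edgeR, and DESeq2 called 0 of the 10 and 5 of all genes. At an unadjusted p under 0.05 there were 2 of the 10 and 881 of all genes (5.45%), as a description. Over the 12 fits that each left out a node library, the interaction ranged from -0.93 to -0.74 for *Jun* and from -0.95 to -0.65 for *Nr4a1*. It ranged from -2.01 to -0.68 for *Atf3* and from -1.23 to -0.34 for *Dusp1*.

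Before UVB, which compares the genotypes at rest, 0 of the 10 genes and 0% of all genes were called by edgeR in *Ifnk* TG against WT nodes. At an unadjusted p under 0.05 there were 1 of the 10 and 549 of all genes (3.39%), and DESeq2 called 0 of the 10 and 2 of all genes. *Jun* was at 0.50 (SE 0.141), higher in 3 of 3 *Ifnk* TG libraries than in any WT library, and *Nr4a1* at 0.29. *Jun* and *Dusp1* were the 2 of 10 genes whose groups did not overlap, against 10.5% of all genes. After UVB, 0 of the 10 and 0% of all genes were called by edgeR, and DESeq2 called 0 of the 10 and 21 of all genes. At an unadjusted p under 0.05 there were 2 of the 10 and 1131 of all genes (6.99%), as a description. *Jun* was then at -0.34 (SE 0.140) and *Nr4a1* at -0.55 (SE 0.173), both lower in 3 of 3 *Ifnk* TG libraries than in any WT library. Groups did not overlap for 9.71% of all genes.

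Heat shock genes were a companion list of *Jun* in the nodes. In untreated WT nodes 1, 2 and 3 the summed level of the 12 genes was 3521, 3686 and 3071 CPM, and in WT nodes 7, 8 and 9 after UVB it was 5039, 11220 and 6674 CPM. In *Ifnk* TG nodes it was 3439, 3763 and 3720 CPM before and 4431, 4024 and 6601 CPM after UVB. *Hsp90ab1* was the most abundant, and *Hspa1a* alone was at 0, in untreated WT node 2. As a description, edgeR called 8 of the 12 higher and 0 lower after UVB in WT nodes, beside 4.98% of all genes. DESeq2 called 8, beside 14.3% of all genes. The median log2 fold change of the 12 was 1.29. *Hsph1* went from 78.8, 75.7 and 58.7 CPM to 228, 905 and 373 CPM (2.82, SE 0.456), and *Hspa1b* was at 6.02 (SE 1.36). *Hspa1a* had 3, 0 and 1 counts in untreated WT nodes and 54, 1123 and 44 after UVB. It could therefore pass the filter on low counts only through other libraries, and counts of calls in this list support nothing. The count of 8 fell to 0 without untreated WT node 1, 2 or 3, or without WT UVB node 8 or 9. At an unadjusted p under 0.05 stood 9.32% of all genes in *Ifnk* TG nodes after UVB and 5.45% in the interaction. DESeq2 called 134 and 5 of all genes there. In *Ifnk* TG nodes 0 of the 12 were called by edgeR after UVB (unadjusted 1, DESeq2 0, median 0.37). In the interaction 0 of the 12 were called (unadjusted 4, DESeq2 0, median -0.90). Their part in the result for *Jun* was not tested.

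**Figure D5:**
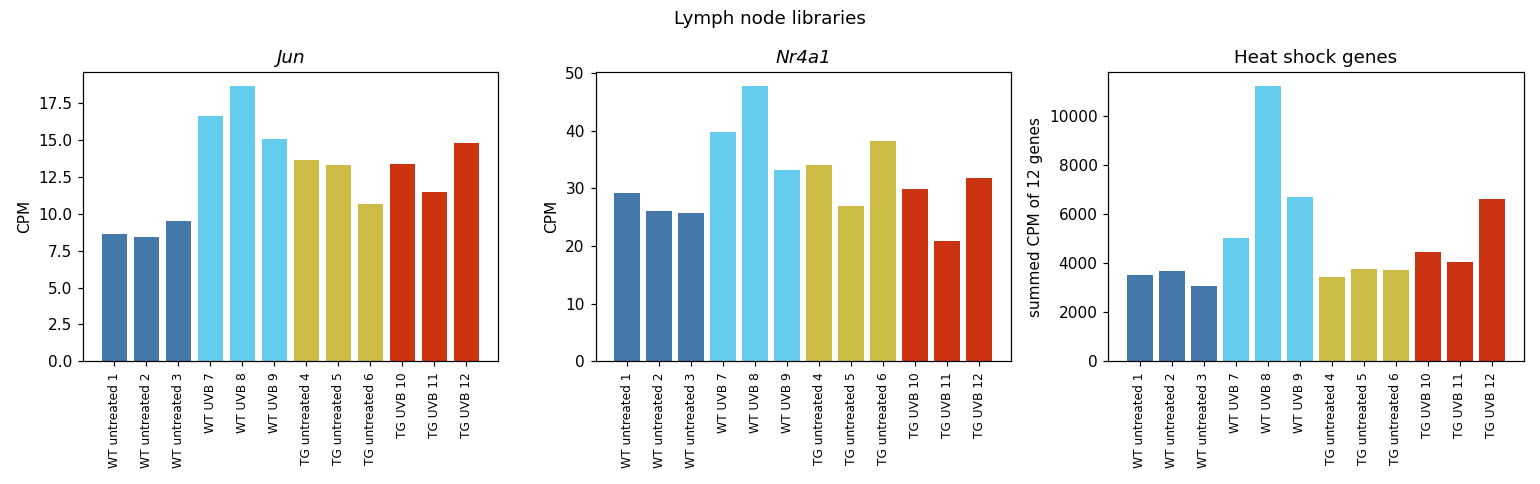
CPM of *Jun*, CPM of *Nr4a1* and the summed CPM of 12 heat shock genes in each of the 12 node libraries (bars). WT node 8 after UVB has the highest bar in all 3 panels, at 18.7, 47.8 and 11220 CPM.

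The other companions of *Jun* are described in WT nodes after UVB, where edgeR called 4.98% of all genes. There 26.3% of all genes were at an unadjusted p under 0.05, and DESeq2 called 14.3%. Of 13 tested AP-1 and bZIP partners *Maf* (0.68) and *Mafg* (0.56) were called higher (unadjusted 3, DESeq2 2), of 13 phosphatases and inhibitors *Dusp10* was called higher (0.36, unadjusted 1, DESeq2 1), and of 20 upstream kinases and factors *Mapk3* was called lower (-0.44, unadjusted 6, DESeq2 4). Of 37 early response genes 0 were called by edgeR (unadjusted 7, DESeq2 1), and of 6 AP-1 targets 0 (unadjusted 0, DESeq2 0). Without untreated WT node 2 or 3, or without WT UVB node 8 or 9, the count of each of these lists was 0, without untreated WT node 1 only 1 partner was called, and without WT UVB node 7 only 1 upstream gene. In *Ifnk* TG nodes 0 genes of any of these 5 lists were called by edgeR or DESeq2 after UVB, where DESeq2 called 134 of all genes. At an unadjusted p under 0.05 there were 2 partners, 2 early response genes, 3 phosphatases and inhibitors, 1 upstream gene and 1 target. The share of all genes at that threshold was 9.32%.

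Markers of cells are given for WT nodes after UVB, where *Jun* was higher, and their counts of calls stand beside 4.98% of all genes by edgeR, 14.3% by DESeq2 and 26.3% at an unadjusted p under 0.05. Erythroid markers, led by *Hbb-bs*, were called lower for 3 of 5 by edgeR (unadjusted 5, DESeq2 5), with a summed level of 134, 121 and 262 CPM in untreated WT, 14.5, 10.8 and 39.5 CPM in WT after UVB, 303, 289 and 261 CPM in untreated *Ifnk* TG, and 26.1, 116 and 159 CPM in *Ifnk* TG nodes after UVB. Smooth muscle and pericyte markers, led by *Rgs5*, were called lower for 2 of 4 (unadjusted 3, DESeq2 3), at 27.3, 33.2 and 22.8 CPM before and 14.3, 6.62 and 7.91 CPM after UVB in WT nodes, with 25.7, 49.4 and 23.2 CPM before and 9.71, 17.2 and 21.9 CPM after UVB in *Ifnk* TG nodes. Endothelial markers, led by *Pecam1*, were called lower for 1 of 5 (unadjusted 2, DESeq2 1), at 287, 274 and 323 CPM before and 222, 199 and 236 CPM after UVB in WT nodes. Fibroblast markers, led by *Col1a2*, were called lower for 1 of 7 (unadjusted 5, DESeq2 2), at 66.5, 64.3 and 46.5 CPM before and 38.4, 13.9 and 15.1 CPM after UVB in WT nodes. Of 6 dendritic cell markers 1 was called lower (unadjusted 1, DESeq2 1), but 4 had a log2 fold change above 0, with a median of 0.17. Their summed level was 509, 476 and 529 CPM before and 390, 366 and 409 CPM after. *Ccr7* made up most of it, at 467, 448 and 499 CPM before and 348, 330 and 369 CPM after. Of 2 tested adipocyte markers 1 was called lower (unadjusted 1, DESeq2 1), and 0 of 7 T cell and 0 of 6 B cell markers were called by edgeR (unadjusted 3 and 2, DESeq2 1 and 0). No gene at all was called without WT UVB node 8. Their part in the result was not tested.

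Genes of like pattern were ranked, as description, by the Pearson correlation of log2 CPM with the mean standardized level of the 10 genes, over libraries that share their groups and treatments. Over the 9 skin libraries the closest of 10450 candidates were *Zfp36* (0.984), *Vps26b* (0.953), *Cramp1l* (0.923), *Zfp36l1* (0.911) and *Ncoa6* (0.909). For *Jun* alone they were *Zfp36* (0.906), *Poc5* (0.884), *Kdm6b* (0.871), *Fancm* (0.868) and *Tmem135* (0.851). *Zfp36*, itself an early response gene, stood at 325, 80.8 and 107 CPM in WT, 241 and 142 CPM in NL, and 98.5, 109, 199 and 171 CPM in L libraries, so that it too was highest in WT library 8 and lowest in WT library 9. Over the 12 node libraries the closest of 8826 to the mean of the 10 were *Tbc1d10b* (0.932), *Sap30l* (0.916), *Ado* (0.910), *Exoc8* (0.895) and *Rbm15b* (0.894), and to *Jun* alone *Ccr4* (0.921), *Mxd4* (0.917), *Dnajb2* (0.908), *Safb* (0.904) and *Polrmt* (0.895).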

How the data were processed

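The authors deposited expected counts per gene, estimated with RSEM 1.3.3 after cutadapt 4.8 and STAR 2.7.8a alignment to GRCm38, with FastQC 0.11.8 and MultiQC 1.20 for quality. The expected counts were rounded and fitted by tissue with edgeR 4.0.16 (R 4.3.3; filterByExpr by group, TMM, robust quasi-likelihood F test), with Benjamini-Hochberg adjustment over all tested genes and a threshold of 0.05. CPM used TMM-scaled library sizes. The SE of a fold change was derived from the test, as its absolute value divided by the square root of the F statistic. Alternatives were DESeq2 1.42.0, RLE scaling, no filter, at least 10 counts in every library, *Xist* as covariate, compared groups alone and each library left out. All 10 symbols matched 1 gene each, and 8 of 10 had a promoter in the RefSeq table. Members and lists were chosen with earlier results of these data known. Named were all members, up to 3 of the largest called changes of each companion list, genes of counts of 5 or fewer, and the 5 genes most like the members. *Fosl2*, *Mapk8*, *Hspa1a* and *Cd44* were singled out after their values were seen.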

Additional observations from a re-analysis of the deposited data

How the results depend on the processing

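Of 1034 fold changes of members under alternatives, 994 counted as unchanged. These were either uncalled in both fits and within 1 SE of the reported value, or called in both with the same sign. For the called ones no distance was checked. A move within 1 SE could still turn a sign where the SE was large. *Ier2* in L against WT skin, with an SE of 0.5, went from 0.17 to -0.22 without WT library 9. A further 35 moved by more than 1 SE of the reported value, 2 lost and 3 gained a call, and 0 called values changed sign. Members called in L against WT skin ranged from 0 to 1 when a library was left out (1, *Junb*, without WT library 8). In UVB against untreated WT nodes they were 2 by DESeq2, 2 with the compared groups fitted alone, and 0 to 1 when a library was left out. All genes called in L against NL skin were 3156 with the groups fitted alone, 1182 to 5187 with a library left out, and 391 without NL library 3 and L library 6, which was chosen after seeing the data. In NL against WT skin they were 62 by DESeq2 and 1 with the groups fitted alone. In UVB against untreated WT nodes they were 1972 by DESeq2, 407 with *Xist* as covariate, 2431 with the groups fitted alone and 0 to 493 with a library left out. In *Ifnk* TG nodes after UVB they were 134 by DESeq2 and 0 to 236 with a library left out. For genotype they were 2 by DESeq2 and 0 to 1 with a library left out before UVB, and 21 by DESeq2, 1 without a filter and 0 to 2 with a library left out after UVB. For the interaction they were 5 by DESeq2 and 0 to 1 with a library left out. In each case the cause was not tested. No paired analysis was possible because the groups compared share no replicate numbers and the labels name no animals. The numbers run on from group to group within a tissue, so they do not tell which libraries came from the same mouse. Whether L and NL skin came from the same mice is therefore unknown, and any such pairing was ignored in L against NL skin. Where leaving out a library left a group with 1 library, that library was assumed to vary like the others. Depth limits *Atf3*, *Fosb* and *Fos* in nodes, where the lowest counts were 5, 17 and 69.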
